A study of Mus musculus with 2 samples.

Results

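Growth control genes were followed in mouse tendon cells under mechanical shear: Myc, the anti-proliferative genes Btg1 and Btg2, the stress genes Gadd45a, Gadd45b and Gadd45g, and Cdkn1a, Trp53 and Mdm2 of the p53 pathway. These 9 genes were chosen by name, with earlier results of these data known. A spot was assigned to one of them when the array annotation gave that gene as its only symbol. Of the 9 genes, 8 were measured on both arrays, on 20 spots in all, out of 10791 named genes on 21701 single-symbol spots. Trp53 had no spot of this kind and was not analysed here. The study asked how shear affects flexor tendon cells, and hybridised RNA of sheared and control tenocytes, the fibroblast-like cells of tendon, together on 2 spotted two-colour arrays. One array compared pooled sheared cells with pooled control cells at 6 h. The other compared cells sheared at 50 rpm with control tenocytes at 12 h. In each case the control RNA carried Cy3 and the sheared RNA Cy5. The labels gave no shear rate for the 6 h array and did not mention pooling for the 12 h array. No genotype, strain, age or further treatment was given in the labels used here.

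Myc is a transcription factor that, paired with Max, switches on genes of ribosome production, metabolism and cell cycle entry. It is an early response gene of fibroblasts whose short-lived transcript appears soon after a stimulus. Btg1 and Btg2 recruit the CCR4-NOT deadenylase to messenger RNAs and slow proliferation. The Gadd45 proteins are small acidic stress proteins that bind PCNA, CDK1 and the kinase Map3k4 (MTK1). Cdkn1a encodes the CDK inhibitor p21. Trp53 encodes p53, and Mdm2 the ubiquitin ligase that degrades p53, while Mdm2, Cdkn1a, Btg2 and Gadd45a are textbook p53 targets.

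Promoter sequences of 8 of the 9 genes were matched by symbol in RefSeq (GRCm38.p6), all but Myc, giving 9 promoters that run from 250 bases before to 50 bases after the start site. They were searched on both strands for 4 motifs, and the 250 bases upstream of the start are shown for the 3 measured genes that hold a rarer one. The Btg2 promoter held the cyclic AMP response element TGACGTCA from 166 bases before the start, a motif in 1.79% of 32851 promoters of this length. The Gadd45b and Gadd45g promoters each held the E-box CACGTG, the canonical site of Myc and Max, from 185 and 142 bases before the start respectively. That E-box stood in 7.15% of all promoters. The stretches lie at chr1:134079156-134079405 on the minus strand for Btg2, at chr10:80929841-80930090 on the plus strand for Gadd45b and at chr13:51846425-51846674 on the plus strand for Gadd45g. They are written from 5′ to 3′ on the gene's strand, with the element or E-box in capitals.
Btg2: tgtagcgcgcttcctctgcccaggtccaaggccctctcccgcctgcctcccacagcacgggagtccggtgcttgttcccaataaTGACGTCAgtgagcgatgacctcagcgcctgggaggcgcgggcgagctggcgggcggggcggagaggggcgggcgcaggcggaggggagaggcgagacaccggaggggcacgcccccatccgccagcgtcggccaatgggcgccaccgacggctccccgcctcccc
Gadd45b: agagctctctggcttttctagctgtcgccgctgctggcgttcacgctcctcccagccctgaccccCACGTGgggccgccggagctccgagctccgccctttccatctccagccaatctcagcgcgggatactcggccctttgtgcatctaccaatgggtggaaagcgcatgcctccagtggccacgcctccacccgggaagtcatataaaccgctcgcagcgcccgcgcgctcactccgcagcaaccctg
Gadd45g: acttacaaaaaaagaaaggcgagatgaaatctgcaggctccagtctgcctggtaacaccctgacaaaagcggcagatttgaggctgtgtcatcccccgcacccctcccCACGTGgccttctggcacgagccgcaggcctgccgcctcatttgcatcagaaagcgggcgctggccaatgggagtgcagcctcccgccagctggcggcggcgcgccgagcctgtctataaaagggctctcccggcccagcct
Both motifs read the same on either strand. The CCAAT box, CCAAT, was found in 7 of the 8 genes with a promoter, against 37.4% of all promoters, and the GC box, GGGCGG, in 6 of 8, against 35.7%. In Btg2, 2 of the 3 GC boxes overlapped by 1 base. The E-box was also found in the Trp53 promoter, downstream of the start site. A match describes letters in the window and does not show that a factor bound there.

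All values are log2 ratios, likely of sheared over control, after subtraction of each array's median, which was -0.323 at 6 h and -0.479 at 12 h in the deposited values. The base of 2 is assumed. The direction is taken from the Cy5 label of the sheared RNA and from the habit of the image database of dividing red by green. With the opposite direction, higher and lower would change places throughout. There was 1 array per time point, so no difference could be tested, and higher or lower describes these arrays. Sheared RNA carried Cy5 on both arrays, so an effect of shear cannot be told apart from one of dye. The only error is the SD between spots of one gene (spot SD). Pooled over genes with 2 or more spots it was 0.738 at 6 h (5396 genes) and 0.855 at 12 h (5579 genes). The threshold for calling a gene higher or lower was 1.5-fold, a log2 of 0.585. In bulk RNA, fewer cells of a type and less RNA per cell cannot be told apart. Ratios give no levels, so whether the cells express tendon markers could not be read from them. Of 14 tendon and fibroblast markers 8 were measured, with gene values from -0.75 to 0.55 at 6 h and from -1.86 to 0.75 at 12 h; Scx, Mkx and Tnmd were not among them. Medians of the 5 marker lists of other cell types ranged from -1.88 to 0.39 at 6 h and from -0.73 to 0.46 at 12 h, over 2 to 6 measured genes each. Their part in the results was not tested.

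At 6 h, 6 of the 8 measured genes were at least 1.5-fold higher in the sheared cells and none was lower. One of the 6, Gadd45a, was counted by a median between 2 spots on opposite sides of 0. Over all 10346 genes measured on that array, 18.2% were higher by at least 1.5-fold and 31.3% lower. Because the members were chosen with earlier results known, such shares give a scale and are no test of them. The median of the 8 genes was 1.24, and that of all genes -0.11. By spot, 16 of the 20 were at least 1.5-fold higher, against 24.2% of all single-symbol spots. Of the 7 genes with 2 or more spots, 5 had every spot at least 1.5-fold higher: Myc, Btg1, Btg2, Gadd45b and Gadd45g. This held for 10.2% of the 5396 genes with 2 or more spots. At a threshold of 2-fold, 5 of the 8 genes were higher and none lower, against 6.2% and 18.8% of all genes. Myc, Btg2 and Gadd45b stood at ranks 32, 36 and 39 from the highest of the 10346 genes.

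At 12 h, 4 of the 8 genes were at least 1.5-fold higher, namely Myc, Btg1, Gadd45b and Gadd45g, and none was lower. Over all 10731 genes of that array, 24.4% were higher by at least 1.5-fold and 33.1% lower. The median of the 8 genes was 0.66, against -0.14 for all genes. Without centring, 2 of the 8 were at least 1.5-fold higher at 12 h, against 13.4% of all genes. These were Gadd45b at 2.07 and Gadd45g at 0.92, while Btg1 stood at 0.53 and Myc at 0.30. By spot, 14 of the 20 were higher, against 30.7% of all spots. The 4 genes with every spot past 1.5-fold, of 7 with 2 or more spots, were the same 4, against 17.4% of all such genes. At 2-fold, 3 of the 8 genes were higher and none lower, against 14.5% and 20.5% of all genes. Being at least 1.5-fold higher on both arrays was found for these 4 of 8 genes, against 13.8% of 10286 genes. The dyes were the same on both arrays, so this likeness does not separate shear from dye. Gadd45b stood at rank 61 of 10731 from the highest, while Myc and Btg2 stood at ranks 2074 and 2839.

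**Figure D1:**
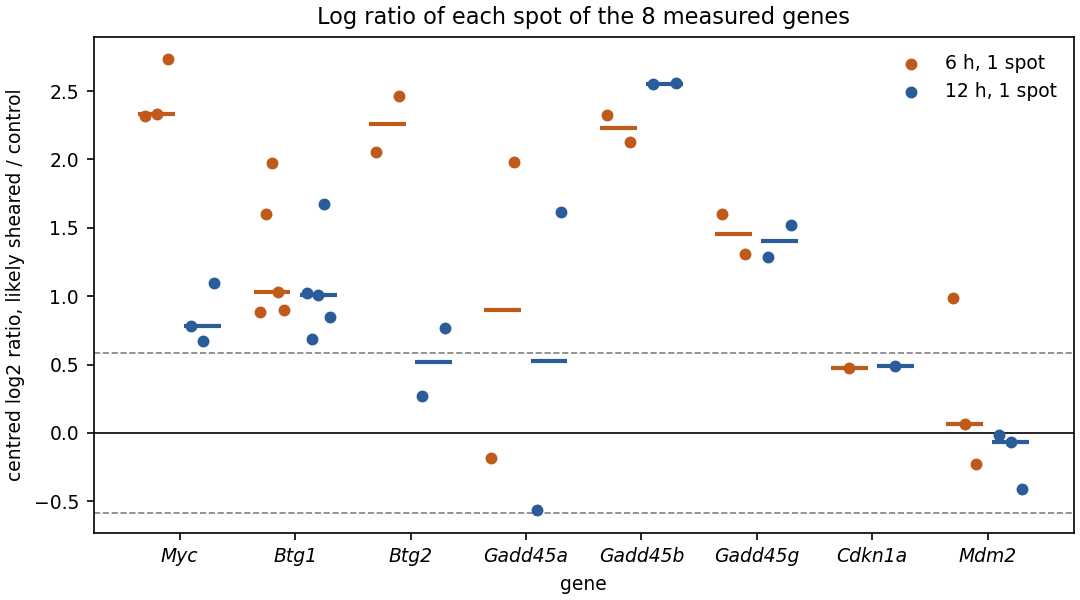
Centred log2 ratio (likely sheared over control) of each spot of the 8 measured genes, at 6 h (orange) and 12 h (blue). Each point is 1 spot, horizontal bars are gene medians and dashed lines mark 1.5-fold. All 3 Myc spots and both Btg2 spots were lower at 12 h than at 6 h, while the Gadd45b spots stayed above 2 at both times.

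Myc was represented by 3 spots that lay close together on each array. At 6 h they read 2.32, 2.33 and 2.73, a median of 2.33 or 5.04-fold (spot SD 0.23). At 12 h the same spots read 0.78, 0.67 and 1.10, a median of 0.78 or 1.72-fold (spot SD 0.22). The lowest spot at 6 h lay above the highest at 12 h. The difference between the arrays, 12 h minus 6 h, was -1.54, -1.66 and -1.64 for the 3 spots, with a median of -1.64 and a spot SD of 0.07. The ratio at 6 h was thus 3.11-fold that at 12 h.

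Btg2, also induced early in many cell types, followed the values of Myc on both arrays. Its 2 spots read 2.06 and 2.47 at 6 h, a median of 2.26 or 4.79-fold (spot SD 0.29). At 12 h they read 0.27 and 0.77, a median of 0.52 or 1.43-fold (spot SD 0.35), and the ranges at the 2 times did not overlap. The difference was -1.79 and -1.70, with a median of -1.74 (spot SD 0.06), or 3.35-fold lower at 12 h. Myc and Btg2 were the only members lower at 12 h than at 6 h by at least 1.5-fold, and no member was higher at 12 h by that much. In such a difference, time cannot be told apart from pooling, shear rate or array. Over 10278 genes, 16.5% were lower at 12 h by at least 1.5-fold and 25.2% higher. Every spot was lower by that much in 2 of the 7 members with 2 or more spots, against 5.26% of 5340 genes. The pooled spot SD of such a difference was 0.74. The Btg2 median was at least 1.5-fold higher at 6 h and within 1.5-fold at 12 h, which 3.83% of all genes showed. Its 2 spots at 12 h, however, lay on either side of 1.5-fold. The Gadd45a median also passed 1.5-fold at 6 h only, but the Gadd45a spots lay on opposite sides of 0.

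Btg1, the closest relative of Btg2, was about 2-fold higher on both arrays. Its 5 spots ranged from 0.89 to 1.97 at 6 h, with a median of 1.03 or 2.04-fold (spot SD 0.49). At 12 h they ranged from 0.69 to 1.68, with a median of 1.01 or 2.01-fold (spot SD 0.38). All 5 spots were past 1.5-fold on both arrays, and the ranges overlapped. The spots did not move together between the arrays: their differences were 0.14, -0.91, -0.96, 0.65 and -0.06, with a median of -0.06 and a spot SD of 0.70. That spread was close to the pooled 0.74. For 2 of the 5 spots the annotation gave the same sequence accession, and these lay 0.02 apart at 6 h and 0.18 apart at 12 h.

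**Figure D2:**
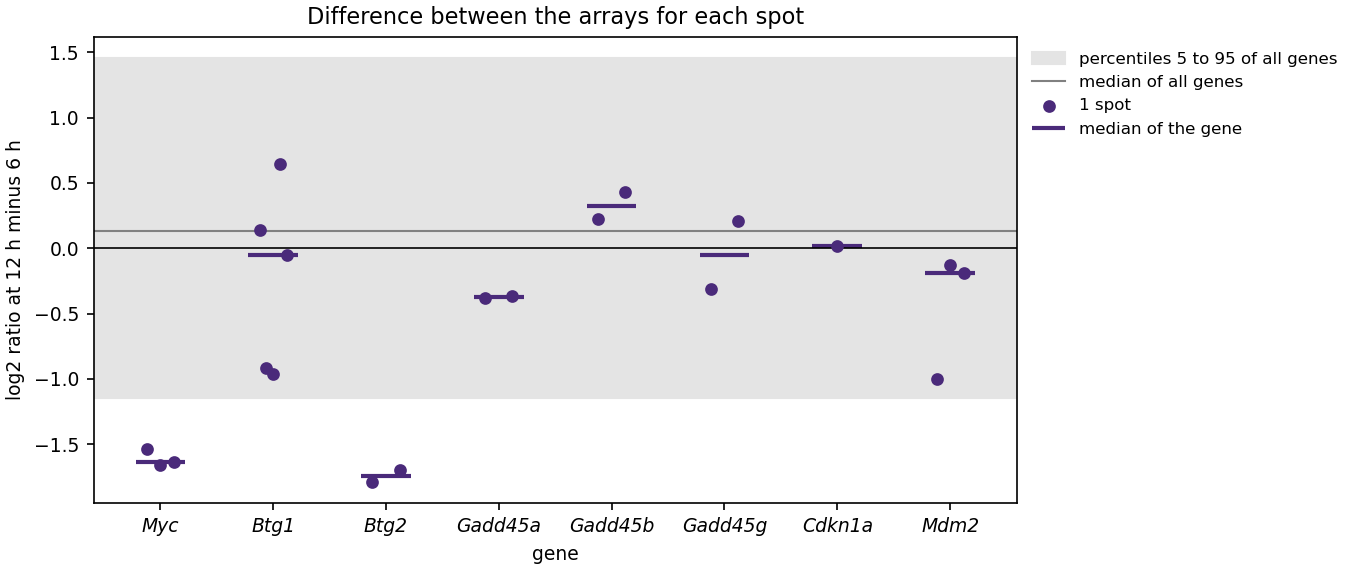
Difference in centred log2 ratio, 12 h minus 6 h, for each spot (points) and the median of each gene (bars). The grey band spans percentiles 5 to 95 of all genes, from -1.15 to 1.46, and the grey line is their median of 0.13. Only the Myc and Btg2 spots lie below the band.

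Of the 3 Gadd45 genes, Gadd45b read highest on both arrays. Its 2 spots read 2.33 and 2.13 at 6 h, a median of 2.23 or 4.69-fold (spot SD 0.14). At 12 h they read 2.55 and 2.56, a median of 2.55 or 5.87-fold (spot SD 0.01). Both spots were higher at 12 h, by 0.22 and 0.43. This difference of 0.32 was below the pooled spot SD of 0.74, and with both arrays scaled to one spread it was -0.22. The sign of that small difference is therefore not settled, and Gadd45b was at least 1.5-fold higher on both arrays under every alternative tried.

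Gadd45g stood below Gadd45b on both arrays, again with like values at both times. Its spots read 1.60 and 1.31 at 6 h, a median of 1.45 or 2.74-fold (spot SD 0.21). They read 1.29 and 1.52 at 12 h, a median of 1.40 or 2.64-fold (spot SD 0.16). The ranges overlapped, and the differences of -0.32 and 0.21 had opposite signs. Ratios to control were compared here between genes, not levels of their transcripts.

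The 2 spots of Gadd45a did not read alike. One read -0.18 at 6 h and -0.57 at 12 h, and the other 1.98 and 1.62. The gene medians of 0.90 and 0.53 therefore lie between spots on opposite sides of 0, with spot SDs of 1.53 and 1.54, and give no direction for the gene. Both spots carried the same sequence accession in the annotation, yet lay 2.17 apart at 6 h and 2.18 apart at 12 h. Among pairs of spots that shared an accession, a gap at least as large was found in 10.1% of 495 pairs at 6 h and 14.8% of 547 pairs at 12 h. The median gaps were 0.66 and 0.91. The difference between the arrays was nevertheless alike, at -0.38 and -0.36 (spot SD 0.01).

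Cdkn1a and Mdm2, both p53 targets, were within 1.5-fold on both arrays. The 1 single-symbol spot of Cdkn1a read 0.47 at 6 h and 0.49 at 12 h, or 1.39-fold and 1.40-fold. A further 2 spots were annotated to both Cdkn1a and 4930567H12Rik, and read 0.17 and 0.54 at 6 h but 1.51 and 2.003 at 12 h. With these kept, the Cdkn1a median at 12 h was 1.51 and Cdkn1a passed 1.5-fold. Which transcript they report cannot be read from the annotation. Mdm2 had 3 spots, which read 0.99, 0.07 and -0.23 at 6 h, a median of 0.07 (spot SD 0.63). At 12 h they read -0.01, -0.06 and -0.41, a median of -0.06 (spot SD 0.22). The first Mdm2 spot was past 1.5-fold at 6 h and near 0 at 12 h, while the others stayed below 1.5-fold at both times.

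**Figure D3:**
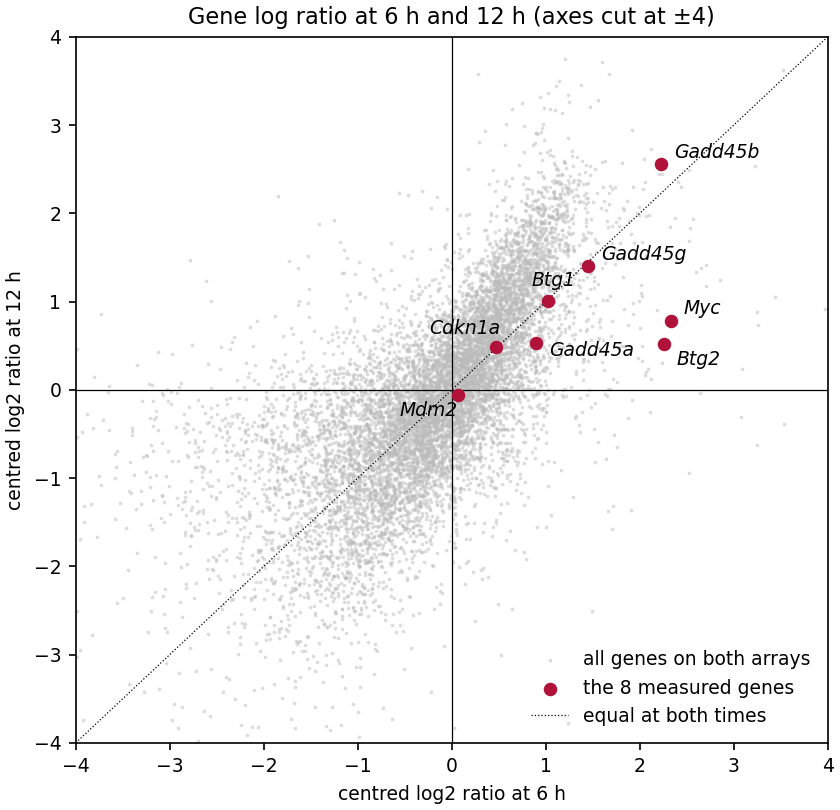
Centred log2 ratio of each gene at 6 h (x axis) and 12 h (y axis), for all 10286 genes on both arrays (grey) and the 8 measured growth control genes (red); axes end at 4 in either direction. Myc and Btg2 lie far below the dotted line of equal values, at 2.33 and 0.78 and at 2.26 and 0.52, while Gadd45b lies above it at 2.23 and 2.55.

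In order at 6 h, the genes ran from Myc, Btg2 and Gadd45b through Gadd45g and Btg1 to Gadd45a, Cdkn1a and Mdm2. The first 3 lay closer together than the spot SD of any of them. At 12 h Gadd45b stood first, followed by Gadd45g, Btg1, Myc, Gadd45a, Btg2, Cdkn1a and Mdm2. There, Gadd45b was separate from Gadd45g, with its lowest spot at 2.55 and the highest Gadd45g spot at 1.52. The Btg1 spots overlapped those of Gadd45g and those of Myc. Over 5344 other genes with 2 or more spots on both arrays, the gene nearest to Myc by distance over both values was Jun, an AP-1 transcription factor subunit, at 2.31 and 0.84. Next was Btg2, for which Myc and then Jun were in turn the nearest. Nearest to Gadd45b were Amd2, at 2.24 and 2.45, and Pdrg1, at 2.05 and 2.61. Klf4, a transcription factor also induced by stress, and Gtf2b, a general transcription factor, were nearest to Gadd45g, at 1.47 and 1.38 and at 1.42 and 1.42. Elmo2 and Elp5 were nearest to Btg1, Myl3 and Dpf2 to Gadd45a, and Smarca5 and Trappc9 to Mdm2. Likeness over 2 arrays is a weak description.

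The other genes of the Myc and Max network had medians below 0 on both arrays, as did all genes, at -0.11 and -0.14. Of 11 genes of the Myc and Max network other than Myc, 2 were at least 1.5-fold higher and 6 lower at 6 h, with a median of -0.88, against 18.2% and 31.3% of all genes. At 12 h 1 of 10 was higher and 5 lower, with a median of -0.59, against 24.4% and 33.1% of all genes. The same shares of all genes stand behind the counts of each list below. These lists too were chosen with earlier results of these data known. Without centring, 8.35% of all genes were higher and 43.7% lower at 6 h, and 13.4% and 51.5% at 12 h. The Myc network then had 8 lower at 6 h and 6 at 12 h, with none higher. Max, the partner Myc needs to bind DNA, stood at -0.29 (spot SD 0.21, 3 spots) and 0.17 (spot SD 0.61). The other Myc genes read below 0: Mycn stood at -1.08 on 1 spot at 6 h, and Mycl at -2.70 (spot SD 2.21, 2 spots) and -0.76 (spot SD 0.97). The Max partners that repress Myc sites were mixed. Mxd1 stood at -1.17 (spot SD 1.496) and -0.43, Mxd3 at 0.59 (spot SD 0.31) and 0.79, Mxd4 at -0.39 (spot SD 1.02) and -0.91, and Mxi1 at 0.02 and 0.23. Mnt stood at -0.88 on both arrays, with spot SDs of 0.41 and 1.28. Mga, a large Max-binding repressor, had the lowest values, at -2.92 (spot SD 1.04, 2 spots) and -3.83 (spot SD 1.55, 3 spots). Mlx, the Max-like partner, stood at 0.63 (spot SD 0.14) and 0.10. Zbtb17, or Miz-1, the factor through which Myc represses genes such as Cdkn1a, stood at -1.68 and -2.27 on 1 spot.

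Known Myc targets read higher more often than lower on both arrays. Of 25 measured of 26 listed, 16 were at least 1.5-fold higher and 1 lower at 6 h, with a median of 0.82 or 1.76-fold, against 18.2% of all genes higher. At 12 h 14 were higher and 2 lower, with a median of 1.08 or 2.11-fold, against 24.4% of all genes higher. Without centring, 11 were higher and 2 lower at 6 h, and 13 and 4 at 12 h. Gnl3, the nucleolar protein nucleostemin, stood at 1.99 (spot SD 0.10, 3 spots) and 1.99 (spot SD 0.36). Nop56, a core protein of the snoRNPs that modify ribosomal RNA, stood at 1.59 (spot SD 0.80) and 2.06 (spot SD 0.68). Nme2, a nucleoside diphosphate kinase with a near-identical relative in Nme1, stood at 1.12 (spot SD 0.15) and 1.997 (spot SD 0.17). Ldha, lactate dehydrogenase, stood at 1.24 (spot SD 0.24) and 1.79 (spot SD 0.00). Beside these, 56 cytosolic ribosomal protein genes, chosen after the data were seen, had medians of 1.17 at 6 h and 2.24 at 12 h, both above those of the Myc targets. Their part in the values of the Myc targets was not tested.

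In the rest of the Btg and Tob family, Tob1 was the one higher gene at 12 h besides Btg1. Tob1, a CCR4-NOT adaptor like the Btg proteins, stood at 0.63 (spot SD 0.48, 3 spots) and 1.46 (spot SD 0.48). Tob2 stood at 0.00 (spot SD 1.30) and -0.29. Btg3 stood at 0.999 on 1 spot at 6 h and at -0.48 on 2 spots at 12 h (spot SD 0.70). Btg4, known from oocytes, stood at -0.99 (spot SD 1.35) and -0.33. Of these 4 genes, 2 were higher and 1 lower at 6 h, with a median of 0.32, and 1 was higher and none lower at 12 h, with a median of -0.31. Without centring, 1 was higher and 1 lower at 6 h, and 1 higher and 3 lower at 12 h, with medians of -0.01 and -0.79.

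Genes of the deadenylase that Btg and Tob proteins recruit, and of other Btg partners, had a median near 0 at 6 h and below it at 12 h. Of 12 genes measured of 14 listed, 1 was higher and 2 lower at 6 h, with a median of -0.14. At 12 h 1 was higher and 6 lower, with a median of -0.58, against 33.1% of all genes lower. Without centring, 5 (41.7%) were lower at 6 h and 7 (58.3%) at 12 h, near the 43.7% and 51.5% of all genes. The catalytic subunit Cnot6 stood at -1.43 (spot SD 0.54) and -2.18 (spot SD 0.998), its relative Cnot6l at -0.22 and -1.66 (spot SD 3.14), and Cnot2 at -0.66 (spot SD 0.50, 5 spots) and -1.64 (spot SD 0.63). Cnot7 and Cnot8, the subunits that Btg proteins bind, were chosen after their values were seen, and stood at 0.18 and 0.16 and at -0.06 and 0.00. Prmt1, an arginine methyltransferase that binds Btg1 and Btg2, was the one higher gene, at 0.89 (spot SD 0.14) and 1.56 (spot SD 0.31).

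Among proteins that work with Gadd45, the replication clamp Pcna had the highest values. It read 2.03 at 6 h (spot SD 0.32, 6 spots) and 2.27 at 12 h (spot SD 0.22), and its spots ranged from 1.64 to 2.42 and from 1.75 to 2.34. Map3k4, the kinase upstream of p38 and JNK that Gadd45 proteins activate, stood at -1.44 and -0.32 on 1 spot. The base excision repair enzymes Apex1 and Tdg stood at 0.55 (spot SD 0.69) and 0.71 (spot SD 0.98), and at 0.54 (spot SD 0.88) and 0.60 (spot SD 0.86). Of the 9 measured of 13 listed, 1 was higher and 1 lower at 6 h, and 3 higher and 2 lower at 12 h, against 18.2% and 31.3%, and 24.4% and 33.1%, of all genes. Without centring, 1 was higher and 4 lower at 6 h, and 1 higher and 6 lower at 12 h.

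**Figure D4:**
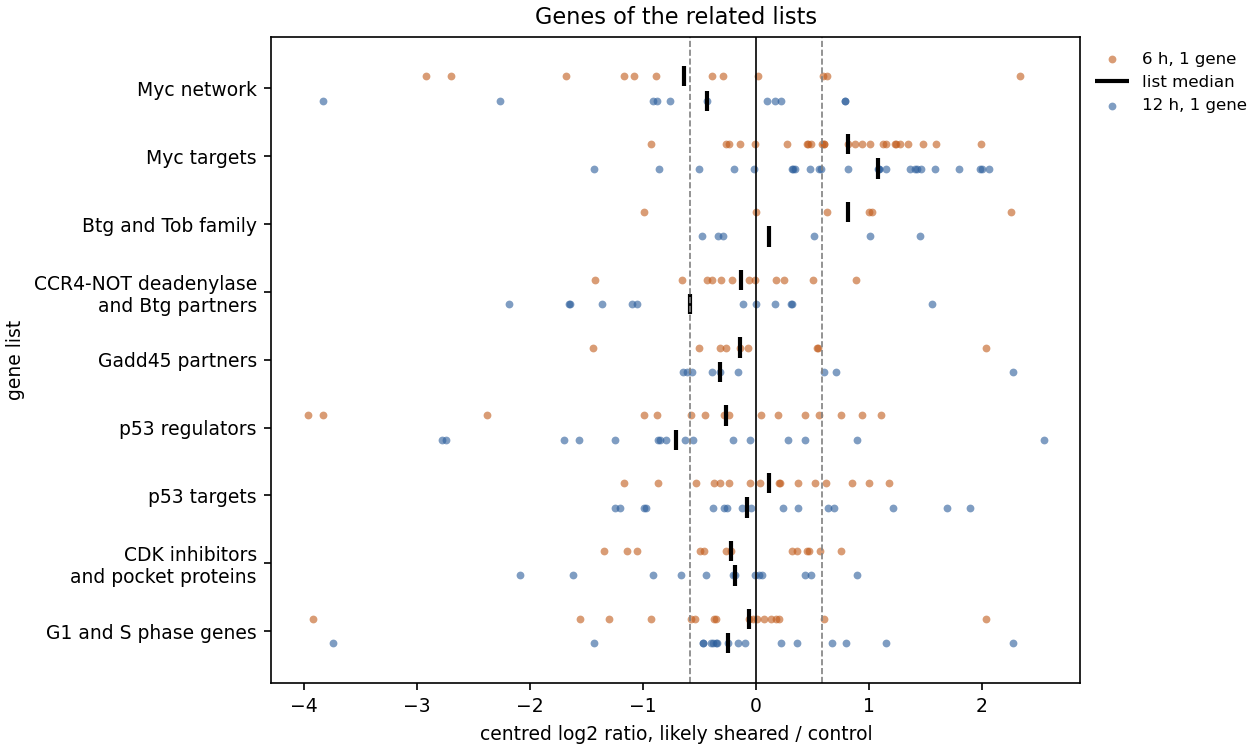
Centred log2 ratio of each measured gene (points) in 9 lists related to Myc, Btg, Gadd45 and p53, at 6 h (orange) and 12 h (blue); black bars are list medians, with members of the panel included, and dashed lines mark 1.5-fold. The Myc targets have medians of 0.82 and 1.08. The medians of the p53 regulators, -0.26 and -0.71, lie below 0, as do those of several other lists. Among these is the Myc network, at -0.63 and -0.43. All genes had medians of -0.11 and -0.14.

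The p53 targets were mixed on both arrays. Of 16 p53 targets measured of 30 listed, beside Cdkn1a and Mdm2, 4 were higher and 2 lower at 6 h, with a median of 0.12. At 12 h 5 were higher and 4 lower, with a median of -0.08. Over all genes, 18.2% and 24.4% were higher and 31.3% and 33.1% lower at these times. Without centring, 2 targets were higher and 5 lower at 6 h, with a median of -0.21. At 12 h 3 were then higher and 8 lower, with a median of -0.56. Epha2, an ephrin receptor, stood at 0.996 and 1.90, and Phlda3, an inhibitor of AKT, at 1.18 and 1.22, each on 1 spot. Rps27l stood at 0.85 (spot SD 0.40, 13 spots) and 1.69 (spot SD 0.21), and can share signal with the ribosomal protein gene Rps27, its near-identical relative. Tigar, a regulator of glycolysis, stood at -0.87 (spot SD 1.38) and -0.97 (spot SD 1.43).

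Regulators of p53 were lower in 5 and higher in 3 of 16 measured genes at 6 h, of 21 listed, and lower in 9 and higher in 2 at 12 h. Their medians were -0.26 and -0.71, and 31.3% and 33.1% of all genes were lower on these arrays. Without centring, 8 and 11 of the 16 were lower, against 43.7% and 51.5% of all genes. The kinases Hipk2 and Chek2, which phosphorylate p53, stood at -3.83 and -2.78 and at -2.38 and -2.74, each on 1 spot. Trp53bp2, which steers p53 towards apoptosis genes, stood at -3.96 and -1.69 on 1 spot. Rpl11, a ribosomal protein that binds Mdm2, stood at 1.10 (spot SD 0.20, 3 spots) and 2.55 (spot SD 0.25), near the medians of all ribosomal protein genes.

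Other brakes on the cell cycle were lower in about the share found for all genes. This list held CDK inhibitors and pocket proteins, with E2f4, Gas1 and Cdkn3 added. Of its 12 genes besides Cdkn1a, 1 was higher and 3 lower at 6 h, and 1 higher and 4 lower at 12 h. Their medians were -0.25 and -0.20. Over all genes, 31.3% and 33.1% were lower. Without centring, none was higher, and 6 and 7 were lower, against 43.7% and 51.5% of all genes. Rbl1, the pocket protein p107, stood at -1.34 and -2.08, Cdkn2d at -1.14 and -0.91 and Cdkn2a at 0.76 and 0.43, each on 1 spot. Gas1, a growth arrest gene, stood at -1.05 (spot SD 2.09) and -1.62 (spot SD 3.97), with 2 spots on opposite sides of 0. Of 17 G1 and S phase genes measured of 18 listed, 2 were higher and 4 lower at 6 h, and 4 higher and 2 lower at 12 h, with medians of -0.06 and -0.24, against the same shares of all genes. Without centring, 1 was higher and 8 lower at 6 h, and 2 higher and 10 lower at 12 h, which turned the balance at 12 h. Besides Pcna, the cyclin Ccnd2 stood at -0.93 (spot SD 0.36, 13 spots) and -1.43 (spot SD 0.77), and the replicative helicase subunit Mcm3 at -1.56 and -0.47 on 1 spot. Cdk6, the cyclin D kinase, stood at -3.92 and -3.74 on 1 spot.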

How the data were processed

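RNA of sheared and control tenocytes was measured on 2 two-colour arrays, 1 at 6 h and 1 at 12 h. The deposited table holds a log2 ratio per spot, 42624 spots in all, of which 39776 had a value at 6 h and 41717 at 12 h. The authors' normalization, background correction and spot filter are not given in the sources used here. The median of all spots of an array was subtracted from its values. Spots were named from GEO's platform annotation: 21701 had 1 symbol, 1124 several and 19799 none. A gene's value is the median of its spots with 1 symbol, and a difference between the arrays is the median over spots measured on both. Spot intensities were not used here, so depth is unknown. The number of arrays limits precision, and no test was possible. Gene summaries were tested on simulated data with less spread between spots than these arrays and no missing spots. That checks the calculation and not the precision of the values.

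The members and the 9 gene lists were chosen with earlier results of these data known. The text names the members, all genes of the Myc network and the Btg and Tob family, the 4 genes with the largest mean absolute log2 in each other list, and the 2 genes nearest to each member with 2 or more spots. Protein sequences were not used here. The alternatives were no centring, means of spots, spots with several symbols kept, scaling of the arrays to a common median absolute deviation, centring in 48 blocks of 900 spots or on named spots, a 2-fold threshold, and genes with 2 or more spots. Calculations used Python 3.11.15 with pandas 2.3.3.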

Additional observations from a re-analysis of the deposited data

Results flagged for a closer look

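Signal past 1.5-fold was found in 2 spots that none of the gene values include, because the annotation lists both 4930567H12Rik and Cdkn1a for them. At 12 h they read 1.51 and 2.003, against 0.49 for the 1 spot annotated to Cdkn1a alone. At 6 h they read 0.17 and 0.54, against 0.47. Their differences, 12 h minus 6 h, were 1.34 and 1.46, against 0.02 for the Cdkn1a spot.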

How the results depend on the processing

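The counts of members past 1.5-fold stayed within 1.5 times their reported values under the 8 alternatives, except that without centring 2 rather than 4 of 8 members were at least 1.5-fold higher at 12 h. The share of all genes that much higher at 12 h was 13.4% without centring and 24.4% with it. Of 144 recomputed member values and differences, 142 moved by less than the pooled spot SD and none past 1.5-fold changed sign. The other 2 were Cdkn1a at 12 h and its difference, which came to 1.51 and 1.34 with spots of several symbols kept. Much of this was fixed in advance. The array medians of -0.323 and -0.479 are smaller than the pooled spot SDs of 0.738 and 0.855, so leaving out centring could not move a value past them. For members with 1 or 2 spots, mean and median are the same. The count of 142 is therefore no measure of robustness. The difference of Myc ranged from -2.03 to -1.61 and that of Btg2 from -2.09 to -1.54. Counts in the related lists are small and moved most without centring and at a 2-fold threshold. In each case 25 of these counts moved past 1.5 times, which was most of them. At 2-fold the other 11 stayed within that. No paired analysis was possible because each time point has 1 array. Neither spot brightness nor the spread between cultures was measured here, and 1 spot has no check of its own.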

Other observations

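Spots annotated with the same sequence accession did not read closer together than spots of the same gene in general. Over 524 accessions with 2 or more single-symbol spots at 6 h the pooled SD was 0.90, against 0.738 within genes, and over 579 accessions at 12 h it was 0.997, against 0.855. The median SDs were 0.48 against 0.38 at 6 h and 0.63 against 0.46 at 12 h. The genes behind the 2 sets were not matched, and spots that share an accession also count within genes. Spots with the same and with different accessions were not compared within the same genes.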
